A study of Mus musculus with 12 samples.

Results

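The transcripts of 10 genes that control the passage from G1 into S phase were followed in mouse embryonic stem (ES) cells during mTOR inhibition. The genes were chosen by symbol: the D-type cyclins Ccnd1, Ccnd2 and Ccnd3, the E-type cyclins Ccne1 and Ccne2, the kinases Cdk4 and Cdk6, and the CDK inhibitors Cdkn1b (p27Kip1), Cdkn2a (p16Ink4a and p19Arf) and Cdkn2b (p15Ink4b). All 10 were among the 54446 gene identifiers of every library, and all 10 were among the 15727 genes tested, those with a mean of at least 1 TPM (a share of all transcripts, corrected for transcript length) over the 12 libraries.

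D-type cyclins are made in response to growth signals and switch on CDK4 and CDK6, which phosphorylate the retinoblastoma (pocket) proteins and so release E2F transcription factors. E-type cyclins then drive CDK2 into S phase. INK4 proteins such as p15 and p16 block CDK4 and CDK6, p27 holds the cyclin E and CDK2 complex in check, and p19Arf acts through p53 instead. ES cells are known for a short G1, and mTOR is a kinase that couples nutrients to growth and to the translation of cyclin D.

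RNA depleted of ribosomal RNA had been sequenced from 2 lines, which the labels call E14 KH and E14 DNMT3ABKO (here KH and DNMT3ABKO), at 0, 72 and 144 h of the mTOR inhibitor Ink128 (mTORi), with 2 replicates in each of the 6 groups. KH was taken to be the wild-type line that the methods and the file headers write as KH2. In DNMT3ABKO cells Dnmt3a and Dnmt3b, the enzymes that set new DNA methylation, are knocked out, and each genotype was 1 line, so that genotype and line cannot be told apart. mTORi brings ES cells into a paused state that resembles embryonic diapause, and the comparisons ask how transcripts change on entry to this state, after it, and with or without the enzymes. The 0 h groups were untreated and no untreated culture was kept to 72 or 144 h among these libraries, so that treatment and time in culture cannot be told apart. The study's methods have the KH2 and the Dnmt3a/b knockout cells on feeders, a layer of arrested fibroblasts, but cells of E14 background without them, so that the E14 in the labels goes against the feeder culture. Cells were sorted before RNA extraction.

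Dnmt3a stood at 16.8 to 20.2% and Dnmt3b at 8.90 to 14.1% of the KH level in DNMT3ABKO cells over the 3 time points. A level of 1 TPM or more was reached by 15178 to 15811 genes per library, the depth is unknown because TPM keeps none, and replicates correlated least in DNMT3ABKO cells at 0 h (r = 0.985, against 0.993 to 0.996 in the other groups, across genes). ES cell markers were high throughout, and 10 of them summed to 4481 to 4778 TPM in the KH libraries at 0 h and to 6955 to 7067 TPM at 144 h. The 20 fibroblast markers, none at 0, summed to 2315 to 2645 TPM at 0 h in either line and to 156 to 169 TPM at 144 h. The 8 macrophage markers summed to 224 to 292 TPM at 0 h and to 37.8 to 54.1 TPM at 144 h. In such bulk samples fewer cells of a type and less RNA per cell cannot be told apart.

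The 10 genes spanned a wide range of levels per length. Cdk4 was the highest, at 365 TPM on average over the 12 libraries, followed by Ccne1 at 168, Ccnd3 at 130, Ccnd1 at 101 and Ccnd2 at 55.6 TPM. The other five lay close together, with Cdk6 at 19.8, Cdkn1b at 19.5, Ccne2 at 15.5, Cdkn2a at 12.9 and Cdkn2b at 7.57 TPM. The order changed between groups. In KH cells at 0 h the libraries of Cdkn1b and Ccne2 overlapped. In DNMT3ABKO cells at 0 h those of Ccne1 and Ccnd3 did, those of Cdk6 and Cdkn2a, and those of Ccne2 with both Cdkn2b and Cdkn1b, and at 144 h those of Ccne2 and Cdk6. These pairs did not differ beyond their spread within the group. The ratio of the highest to the lowest library was 1.39 for Cdk4 and 1.56 for Ccne1, against 4.06 for Cdkn2a and 7.27 for Cdkn2b.

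**Figure D1:**
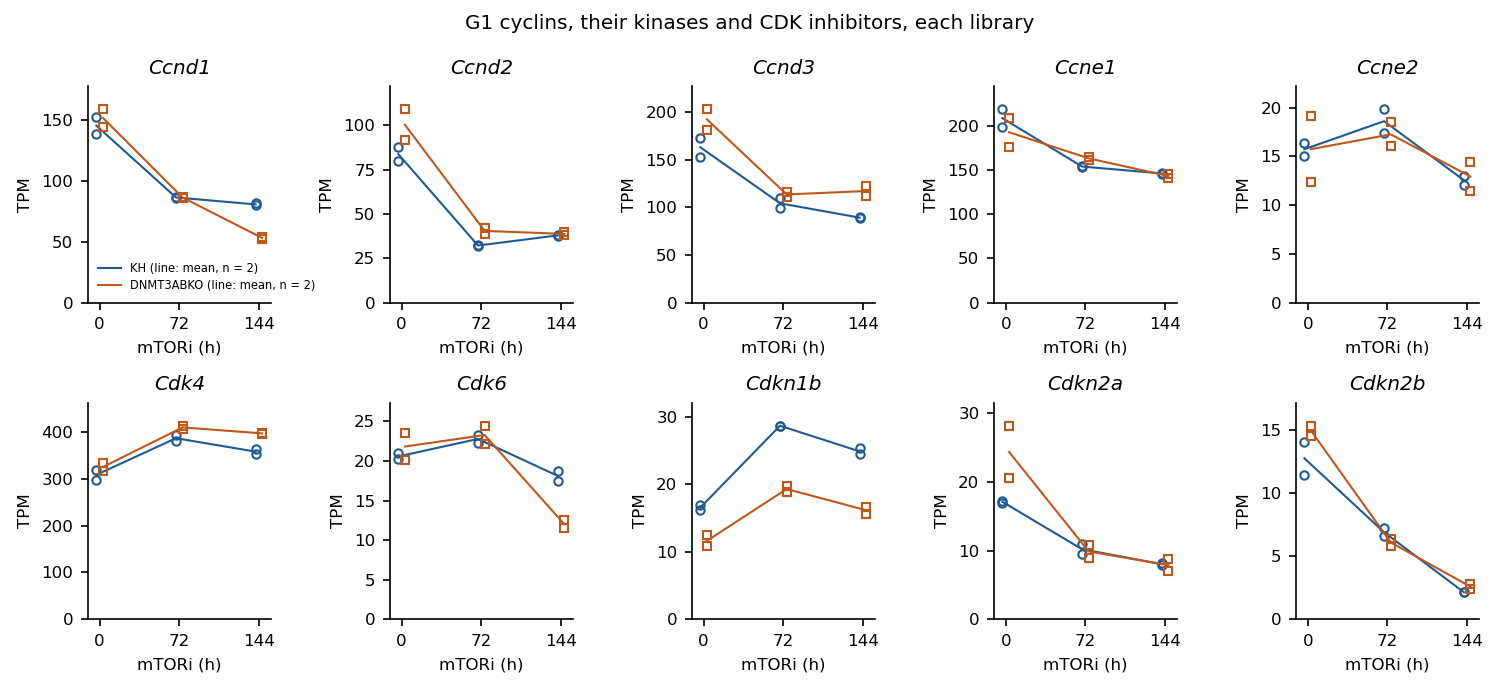
TPM of each gene against hours of mTORi, 1 panel per gene with its own axis from 0; each point is a library (KH circles, DNMT3ABKO squares) and lines join group means (n = 2). The 3 D-type cyclins, Cdkn2a and Cdkn2b are lower at 72 and 144 h than at 0 h in both lines. Cdkn1b is higher, and Ccnd1 and Cdk6 separate the lines at 144 h.

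Most of the set changed within 72 h. In KH cells 8 of the 10 genes passed the test at 72 h against 0 h, 2 of them higher and 6 lower. Of all genes tested 47.8% passed in this comparison, 28.3% higher and 19.5% lower. In DNMT3ABKO cells the same 8 genes passed in the same directions, against 56.0% of all genes (34.3% higher and 21.6% lower). The median log2 fold change of the 10 genes was -0.54 in KH and -0.49 in DNMT3ABKO cells, beside 0.08 and 0.12 over all genes tested. All fold changes are on the log2(TPM + 1) scale, which understates changes of low genes, and each adjusted p comes from limma with the spread shared over all groups. They are changes in a share of each library's RNA, so a rise here need not be a rise per cell. With spike-in normalization the study reports a globally repressed transcriptome under mTORi in wild-type cells, and lower global transcription in the knockout. Replicates are those of the labels, and p-values measure the spread between them.

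The D-type cyclins fell in both lines. Ccnd2 (ENSMUSG00000000184.12, mm10 chromosome 6, 127125162 to 127152193) encodes cyclin D2. In KH cells its libraries held 79.6 and 87.9 TPM at 0 h, 32.5 and 31.9 TPM at 72 h, and 38.3 and 37.5 TPM at 144 h. In DNMT3ABKO cells they held 91.5 and 109 TPM, then 42.0 and 38.9 TPM, then 37.9 and 39.6 TPM. Every treated library was below every untreated library of its line, and the later 2 time points of DNMT3ABKO cells overlapped. By 72 h Ccnd2 was at 38.4% of its 0 h level in KH (log2 fold change -1.35 ± 0.09 SE, adjusted p = 3.37e-06) and at 40.3% in DNMT3ABKO cells (-1.29 ± 0.09, adjusted p = 2.47e-06). Between 72 and 144 h the change did not pass the test in KH (0.23, 95% interval 0.03 to 0.43, adjusted p = 0.0978) or in DNMT3ABKO cells (-0.06, adjusted p = 0.683).

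Ccnd1 (ENSMUSG00000070348.5, chromosome 7, 144929931 to 144939925), the cyclin D1 gene, held 139 and 152 TPM in KH cells at 0 h, 85.8 and 87.2 TPM at 72 h and 81.6 and 80.0 TPM at 144 h. DNMT3ABKO libraries held 145 and 159 TPM at 0 h and 86.7 and 86.2 TPM at 72 h, overlapping the KH values, but 52.5 and 53.7 TPM at 144 h. The 2 lines thus overlapped until 72 h and stood apart at 144 h. At 72 h Ccnd1 was at 59.4% of its 0 h level in KH (-0.74 ± 0.07, adjusted p = 2.45e-05) and at 56.9% in DNMT3ABKO cells (-0.81 ± 0.07, adjusted p = 7.98e-06). In the late step, 144 h against 72 h, it fell further in DNMT3ABKO cells (-0.69 ± 0.07, adjusted p = 5.06e-05), whereas the KH change of -0.10 had an interval of -0.25 to 0.05 (adjusted p = 0.351). Counting that uses strand is not stated by the sources, and Ccnd1 shares part of its interval with Oraov1 on the opposite strand (mean 11.4 TPM).

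Ccnd3 (ENSMUSG00000034165.16, chromosome 17, 47505051 to 47599691) encodes cyclin D3 and was the most abundant of the 3 in every group mean. It stood at 153 and 173 TPM in KH cells at 0 h, 110 and 98.9 TPM at 72 h and 88.6 and 89.9 TPM at 144 h. In DNMT3ABKO cells the values were 182 and 203 TPM, 111 and 116 TPM, and 123 and 112 TPM. No treated library reached an untreated one of its line. The fall by 72 h was -0.64 ± 0.09 in KH (adjusted p = 0.000282) and -0.75 ± 0.09 in DNMT3ABKO cells (adjusted p = 6.50e-05), and in neither line did 144 h differ from 72 h by the test (KH -0.22, adjusted p = 0.103; DNMT3ABKO 0.04, adjusted p = 0.770). The interval of Ccnd3 overlaps that of Bysl on the opposite strand, which averaged 38.0 TPM.

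Summed over the D-type cyclins, KH libraries held 371 and 414 TPM at 0 h, 228 and 218 TPM at 72 h and 208 and 207 TPM at 144 h, and the later means were 56.8% and 53.0% of the first. DNMT3ABKO libraries went from 418 and 471 TPM to 240 and 241 TPM and to 213 and 205 TPM, or 54.1% and 47.0%. The make-up of the sum differed more than its size. Ccnd1 made up 38.6 to 39.1% of it in the KH libraries at 144 h and 24.6 to 26.2% in the DNMT3ABKO libraries, and Ccnd3 made up 42.5 to 43.3% and 54.5 to 57.6%. These sums and shares are given as a description, with no test.

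**Figure D2:**
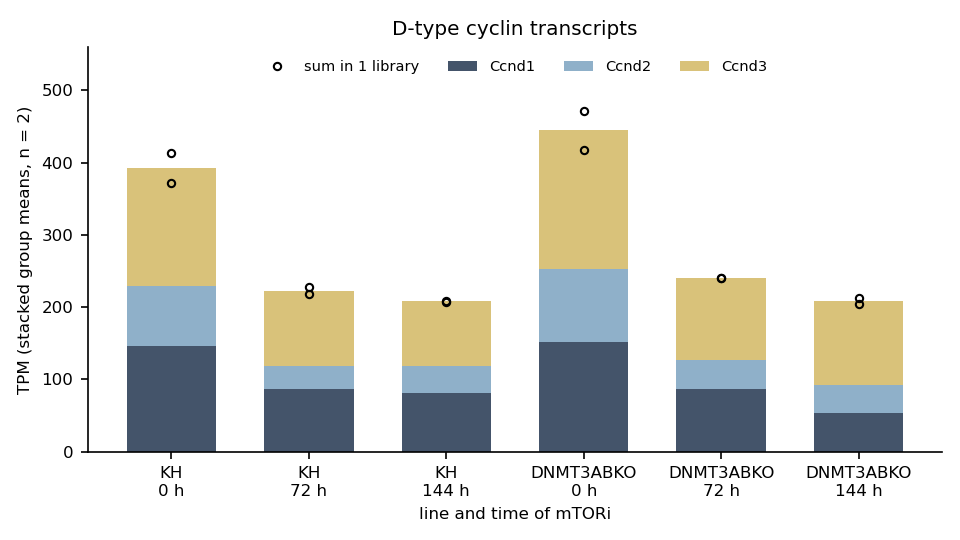
Stacked bars give the group mean TPM (n = 2) of Ccnd1, Ccnd2 and Ccnd3, and circles the sum in each library, by line and hours of mTORi. The sum falls to 56.8% of its 0 h mean in KH and 54.1% in DNMT3ABKO cells at 72 h, and at 144 h the Ccnd1 segment is smaller in DNMT3ABKO cells.

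Of the E-type cyclins, Ccne1 fell with smaller fold changes than the D-type cyclins, though some intervals overlapped, and Ccne2 passed in no comparison. Ccne1 (ENSMUSG00000002068.16, chromosome 7, 38097984 to 38107534), the cyclin E1 gene, held 199 and 219 TPM in KH cells at 0 h, 155 and 153 TPM at 72 h and 147 and 146 TPM at 144 h. In DNMT3ABKO cells it held 177 and 209 TPM, 162 and 165 TPM, and 141 and 146 TPM. Untreated libraries were the highest in each line. Ccne1 fell to 73.8% in KH at 72 h (-0.44 ± 0.08, adjusted p = 0.00181) and to 70.0% at 144 h (-0.51 ± 0.08, adjusted p = 0.000554). In DNMT3ABKO cells the fall at 144 h was -0.42 ± 0.08 (adjusted p = 0.00144), while that at 72 h (-0.23 ± 0.08, adjusted p = 0.0332) was lost without the second 0 h replicate (-0.11, adjusted p = 0.161) or either 72 h replicate (adjusted p = 0.126 and 0.0959), and with only the 2 groups in the model (adjusted p = 0.161).

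Ccne2 (ENSMUSG00000028212.16, chromosome 4, 11191351 to 11204779), which encodes cyclin E2, ranged from 12.1 to 19.8 TPM in KH and from 11.5 to 19.1 TPM in DNMT3ABKO cells over all time points. It passed the test in none of the 11 comparisons. The nearest was the KH late step, from 17.4 and 19.8 TPM to 13.0 and 12.1 TPM (-0.53, 95% interval -0.93 to -0.13, adjusted p = 0.0574). Its untreated DNMT3ABKO replicates stood far apart, at 12.4 and 19.1 TPM. The interval of Ccne2 overlaps that of Ints8 on the opposite strand, which averaged 41.1 TPM.

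Of the kinases, Cdk4 rose as a share of each library's RNA and Cdk6 did not. Cdk4 (ENSMUSG00000006728.12, chromosome 10, 127063534 to 127067920), the more abundant partner of the D-type cyclins, held 298 and 320 TPM in KH cells at 0 h, 395 and 381 TPM at 72 h and 353 and 364 TPM at 144 h. DNMT3ABKO libraries held 317 and 335 TPM, 407 and 414.5 TPM, and 400 and 396 TPM. All 8 treated libraries exceeded all 4 untreated ones. The rise by 72 h was to 125% of the untreated level in KH (0.33 ± 0.06, adjusted p = 0.00158) and to 126% in DNMT3ABKO cells (0.33 ± 0.06, adjusted p = 0.00103). At 144 h it was smaller in KH (0.22 ± 0.06, adjusted p = 0.0126) and did not pass without the first 0 h replicate (adjusted p = 0.0824) or the second 144 h replicate (adjusted p = 0.0866). In DNMT3ABKO cells at 144 h it was 0.29 ± 0.06 (adjusted p = 0.00223, or 0.0585 with only the 2 groups in the model). Tspan31, on the opposite strand and overlapping Cdk4, averaged 61.1 TPM.

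The promoters of Cdk4 and Cdkn1b are shown because these were the 2 genes of the set that rose in both lines. Those of the neighbours Cdkn2b and Cdkn2a, which fell, are shown beside them. Ccne1 and Ccnd3 also fell and had windows, but their stretches are not printed. Cdkn2a has separate promoters for p16Ink4a and p19Arf, and only the stretch before its upstream start is printed. Sequences are RefSeq promoter windows (GRCm38.p6, the assembly named mm10) from 250 bases before the RefSeq start to the base before the first annotated transcript. Windows were at hand for 7 of the 10 genes, and Ccnd1, Ccnd2 and Ccne2 had none. Capitals mark words found on either strand from a list of 4 kinds: the E-box CACGTG, the cyclic AMP response word TGACGTCA, the E2F words TTTCCCGC, TTTCGCGC, TTTGCCGC and TTTGGCGC, and the FOXO word TGTTTAC. No match overlapped another in these windows.
Cdk4, chr10:127063285-127063533, + strand: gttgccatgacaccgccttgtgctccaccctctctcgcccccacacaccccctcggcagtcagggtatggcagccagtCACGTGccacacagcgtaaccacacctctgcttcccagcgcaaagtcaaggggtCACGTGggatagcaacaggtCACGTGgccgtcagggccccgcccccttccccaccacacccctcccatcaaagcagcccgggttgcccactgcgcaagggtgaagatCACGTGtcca
Cdkn1b, chr6:134920151-134920400, + strand: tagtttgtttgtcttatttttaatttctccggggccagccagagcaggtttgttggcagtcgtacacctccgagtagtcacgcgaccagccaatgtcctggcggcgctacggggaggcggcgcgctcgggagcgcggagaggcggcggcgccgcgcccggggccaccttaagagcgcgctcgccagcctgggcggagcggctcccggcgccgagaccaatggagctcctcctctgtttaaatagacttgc
Cdkn2b, chr4:89311040-89311282, - strand: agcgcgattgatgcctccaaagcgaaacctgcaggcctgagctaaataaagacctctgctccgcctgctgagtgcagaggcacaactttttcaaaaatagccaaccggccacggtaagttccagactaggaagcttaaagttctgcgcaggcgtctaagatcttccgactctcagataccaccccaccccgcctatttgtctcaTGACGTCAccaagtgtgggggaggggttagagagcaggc
Cdkn2a, chr4:89294654-89294869, - strand: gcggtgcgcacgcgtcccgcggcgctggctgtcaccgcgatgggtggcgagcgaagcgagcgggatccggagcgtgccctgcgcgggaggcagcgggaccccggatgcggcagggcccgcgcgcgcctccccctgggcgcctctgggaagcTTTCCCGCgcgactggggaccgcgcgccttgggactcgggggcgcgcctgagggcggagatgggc

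The Cdk4 stretch held 4 E-boxes, beginning 172, 118, 98 and 11 bases before the RefSeq start. An E-box was found in 7.15% of the 32851 promoter windows of the mouse table. As many as in Cdk4, 4 or more, were found in 8 of them (0.0244%), the Cdk4 window included. That cut is the Cdk4 count itself, so the share is a description and not a test. The Cdkn1b stretch, like that of Ccne1, held none of the words. Cdkn2b held 1 cyclic AMP response word, 46 bases before its start (1.79% of windows), and Cdkn2a held 1 E2F word, 99 bases before its upstream start (2.26% of windows). Among the other windows, that of Cdk6 held 1 E-box and that of the first start of Ccnd3 held 1 FOXO word (3.65% of windows). Those of the second starts of Ccnd3 and Cdkn2a held none. The stretches before these second starts and before the Cdk6 start lay inside another annotated transcript of the same gene. A match is a description of the letters, not a site of binding.

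Cdk6 (ENSMUSG00000040274.11, chromosome 5, 3341485 to 3531008), the other D-type cyclin kinase, held 20.2 and 20.9 TPM in KH cells at 0 h, 23.3 and 22.2 TPM at 72 h and 18.8 and 17.5 TPM at 144 h. In DNMT3ABKO cells the values were 20.1 and 23.6 TPM, 24.5 and 22.1 TPM, and 11.5 and 12.5 TPM. The DNMT3ABKO libraries at 144 h were the lowest of all 12. At 72 h Cdk6 passed in neither line (KH 0.14, interval -0.07 to 0.35, adjusted p = 0.247; DNMT3ABKO 0.09, interval -0.12 to 0.30, adjusted p = 0.433). The late step brought a fall in DNMT3ABKO cells to 51.6% of the 72 h level (-0.90 ± 0.09, adjusted p = 8.05e-05). In KH cells Cdk6 was at 79.5% of the 72 h level (-0.32 ± 0.09, adjusted p = 0.0370), a call that was lost without any 1 of the 4 libraries (adjusted p = 0.0867 to 0.192), without the filter on low values (0.0684) and with the replicate number as a block (0.0655). The ratio of Cdk4 to Cdk6 was 14.2 to 15.8 in the untreated libraries, 18.8 and 20.9 in KH and 34.8 and 31.7 in DNMT3ABKO cells at 144 h.

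The CDK inhibitors moved in opposite directions. Cdkn1b (ENSMUSG00000003031.14, chromosome 6, 134920401 to 134925513), the p27 gene, held 16.2 and 16.9 TPM in KH cells at 0 h, 28.7 and 28.7 TPM at 72 h and 24.4 and 25.3 TPM at 144 h. DNMT3ABKO libraries held 10.8 and 12.4 TPM, 19.8 and 18.8 TPM, and 15.6 and 16.7 TPM. Treated libraries were above untreated ones in each line, and KH libraries above DNMT3ABKO libraries at each time point. Cdkn1b rose to 173% in KH at 72 h (0.76 ± 0.08, adjusted p = 6.70e-05) and to 166% in DNMT3ABKO cells (0.69 ± 0.08, adjusted p = 7.26e-05), and at 144 h it was at 150% (0.56 ± 0.08, adjusted p = 0.000306) and 139% (0.44 ± 0.08, adjusted p = 0.00104). The late step missed the threshold in KH (-0.20, adjusted p = 0.114) and in DNMT3ABKO cells (-0.24, adjusted p = 0.0509).

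Cdkn2b (ENSMUSG00000073802.5, chromosome 4, 89306299 to 89311039), the p15 gene, held 11.5 and 14.1 TPM in KH cells at 0 h, 7.20 and 6.58 TPM at 72 h and 2.11 and 2.16 TPM at 144 h. In DNMT3ABKO cells it held 14.6 and 15.4 TPM, 5.82 and 6.35 TPM, and 2.75 and 2.4 TPM. The time points were separate in both lines. It was the only gene of the set to fall by the test in both steps in both lines under every alternative: by 72 h (KH -0.80 ± 0.11, adjusted p = 0.000315; DNMT3ABKO -1.17 ± 0.11, adjusted p = 1.76e-05) and from 72 to 144 h (KH -1.33 ± 0.11, adjusted p = 2.74e-05; DNMT3ABKO -0.99 ± 0.11, adjusted p = 0.000130). At 144 h 16.7% of the untreated level was left in KH and 17.2% in DNMT3ABKO cells.

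Cdkn2a (ENSMUSG00000044303.6, chromosome 4, 89274471 to 89294653) is a single row that covers both p16Ink4a and p19Arf, which start at separate promoters and cannot be told apart here. KH libraries held 17.3 and 17.0 TPM at 0 h, 10.96 and 9.42 TPM at 72 h and 8.14 and 7.90 TPM at 144 h. DNMT3ABKO libraries held 28.2 and 20.6 TPM, 8.95 and 10.8 TPM, and 8.77 and 6.95 TPM. Untreated libraries were again the highest, and the DNMT3ABKO pair at 0 h was the widest. The fall by 72 h was -0.70 ± 0.15 in KH (adjusted p = 0.00450) and -1.21 ± 0.15 in DNMT3ABKO cells (adjusted p = 0.000116), and the late step passed in neither line (KH -0.31, adjusted p = 0.189; DNMT3ABKO -0.30, adjusted p = 0.192).

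At 144 h against 0 h, 8 genes of the set passed in KH cells, 2 higher and 6 lower, against 51.3% of all genes tested (27.4% higher and 23.9% lower). In DNMT3ABKO cells 9 passed, 2 higher and 7 lower, against 57.6% (31.4% higher and 26.2% lower), the ninth being Cdk6 (-0.81 ± 0.09, adjusted p = 4.97e-05). Fold changes for the D-type cyclins were -0.84, -1.12 and -0.86 for Ccnd1, Ccnd2 and Ccnd3 in KH and -1.50, -1.34 and -0.71 in DNMT3ABKO cells, with adjusted p from 5.54e-08 to 7.45e-05. Cdkn2a was at -1.01 in KH (adjusted p = 0.000427) and -1.51 in DNMT3ABKO cells (adjusted p = 2.00e-05), and Cdkn2b at -2.13 and -2.16 (adjusted p = 3.04e-07 and 1.34e-07). The late step alone was smaller: 2 genes passed in KH (Cdk6 and Cdkn2b, both lower), beside 22.9% of all genes (15.6% lower and 7.24% higher), and 3 in DNMT3ABKO cells (Ccnd1, Cdk6 and Cdkn2b, all lower), beside 27.3% (18.5% lower and 8.81% higher).

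**Figure D3:**
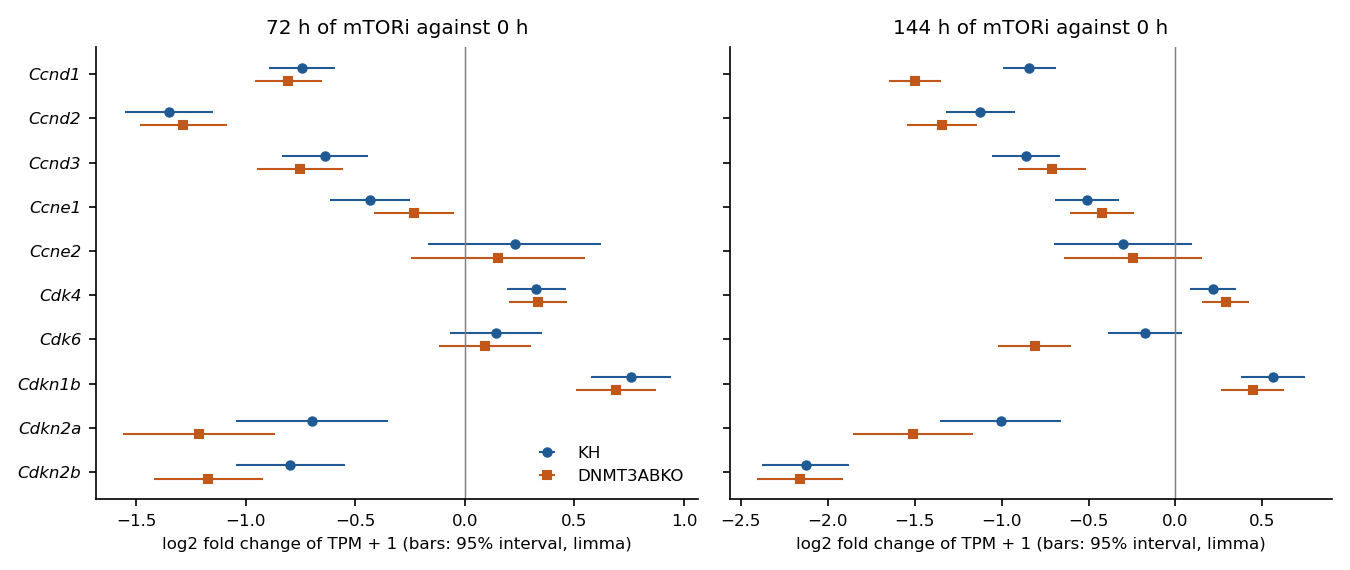
Log2 fold change of TPM + 1 for each gene at 72 h (left) and 144 h (right) of mTORi against 0 h, KH circles and DNMT3ABKO squares, with 95% intervals from limma. The intervals of the D-type cyclins, Cdkn2a and Cdkn2b lie below 0 and those of Cdk4 and Cdkn1b above 0 in both lines. At 144 h the line intervals of Ccnd1 and Cdk6 do not overlap.

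The fibroblast markers fell in the same libraries. All 19 of the 20 that were tested were lower in both lines at 72 h and again from 72 to 144 h, and their sum was 32.1% of its 0 h mean in KH and 23.7% in DNMT3ABKO cells at 72 h, then 6.48% and 6.25% at 144 h. The 6 defining markers, among them Col1a1, Thy1 and Pdgfrb, summed to 852 to 1099.5 TPM per library at 0 h and 36.8 to 40.3 TPM at 144 h. The sum of the macrophage markers was at 73.6% in KH and 59.2% in DNMT3ABKO cells at 72 h and at 13.7% and 22.0% at 144 h. Within it Laptm5 was higher at 72 h in both lines, and Cd68 passed in neither DNMT3ABKO response. The 3 defining macrophage markers summed to 61.7% in KH and 46.9% in DNMT3ABKO cells at 72 h, and to 2.60% and 7.16% at 144 h. Between 72 and 144 h the fibroblast sum in KH cells went from 781 to 157 TPM. Ccnd1 went from 86.5 to 80.8, Ccnd2 from 32.2 to 37.9 and Ccnd3 from 104 to 89.3 TPM, none passing the test. In DNMT3ABKO cells the sum went from 624 to 165 TPM, and Ccnd1 fell from 86.4 to 53.1 TPM (-0.69, adjusted p = 5.06e-05 by limma). Ccnd2 went from 40.4 to 38.7 TPM there and Ccnd3 from 114 to 117 TPM, without passing. Cdkn2b went from 6.89 to 2.14 TPM in KH and from 6.09 to 2.58 TPM in DNMT3ABKO cells over the same interval, and passed in both. Cdkn2a went from 10.2 to 8.02 TPM in KH and from 9.87 to 7.86 TPM in DNMT3ABKO cells, without passing. The ES cell markers summed to 147% of their 0 h mean in KH and 145% in DNMT3ABKO cells at 72 h. At 144 h they summed to 151% and 155%. Within that sum Nanog was lower in DNMT3ABKO cells at 72 h and Utf1 at 144 h. The part of fibroblasts in the falls of the D-type cyclins, Cdkn2a and Cdkn2b was not tested. Nor was that of the cell mix in the rises of Cdk4 and Cdkn1b.

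**Figure D4:**
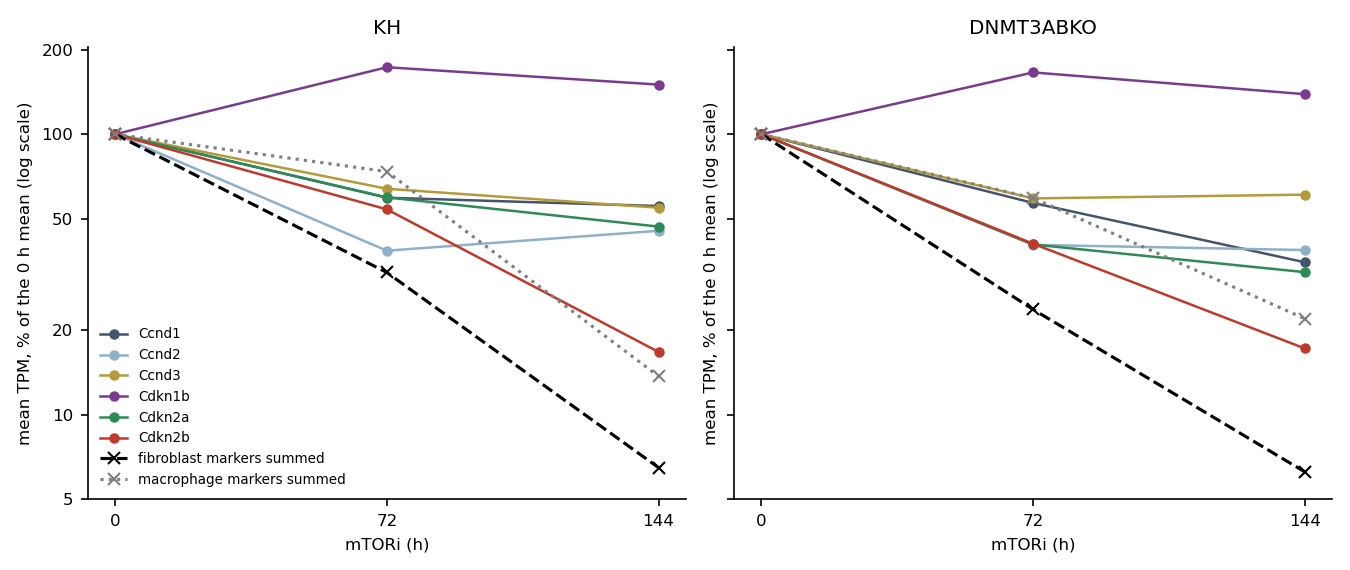
Mean TPM as a percentage of the 0 h mean (log axis, n = 2) against hours of mTORi in KH (left) and DNMT3ABKO cells (right) for 6 genes of the set and for the summed fibroblast and macrophage markers. In KH cells the fibroblast sum falls from 32.1% to 6.48% between 72 and 144 h while Ccnd1, Ccnd2 and Ccnd3 stay between 38.4 and 63.9%, and Cdkn2b falls to 16.7%. The DNMT3ABKO panel has the fibroblast sum falling from 23.7% to 6.25% and Ccnd1 from 56.9% to 34.9%.

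Without treatment the 2 lines differed in 1 gene of the set, beside 9.06% of all genes tested (4.14% lower and 4.92% higher). This was Cdkn1b, at 70.2% of the KH level in DNMT3ABKO cells (-0.48 ± 0.08, adjusted p = 0.00542). The call did not hold with only the untreated groups in the model (adjusted p = 0.248), where 303 genes passed in place of 1425, and leaving out the second DNMT3ABKO replicate raised the number to 5039. Untreated Cdkn2a was at 143% of the KH level (0.47, interval 0.13 to 0.82, adjusted p = 0.0932), and Ccnd2 and Ccnd3 were at 120% and 118% (adjusted p = 0.116 and 0.130).

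At 72 h 2 genes passed, beside 19.3% of all genes (10% lower and 9.26% higher). Cdkn1b was again lower in DNMT3ABKO cells, at 67.3% of the KH level (-0.55 ± 0.08, adjusted p = 0.00127), and Ccnd2 was higher, at 126% (0.32 ± 0.09, adjusted p = 0.0330). The Ccnd2 call was lost without any 1 of the 4 libraries (adjusted p = 0.0772 to 0.196), without the filter (0.0634) and with the replicate block (0.0596).

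At 144 h 4 genes passed, 3 lower and 1 higher, beside 26.5% of all genes (15.5% lower and 11% higher). Ccnd1 was at 65.8% of the KH level in DNMT3ABKO cells (-0.60 ± 0.07, adjusted p = 0.000155), Cdk6 at 66.3% (-0.56 ± 0.09, adjusted p = 0.00203) and Cdkn1b at 64.9% (-0.59 ± 0.08, adjusted p = 0.000552). Ccnd3 was higher, at 131% (0.39 ± 0.09, adjusted p = 0.00958), a call lost without the first replicate of KH (adjusted p = 0.0604) or of DNMT3ABKO cells (0.0817). Cdkn1b was the gene of the set that separated the lines at every time point, with DNMT3ABKO cells at 64.9 to 70.2% of KH.

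**Figure D5:**
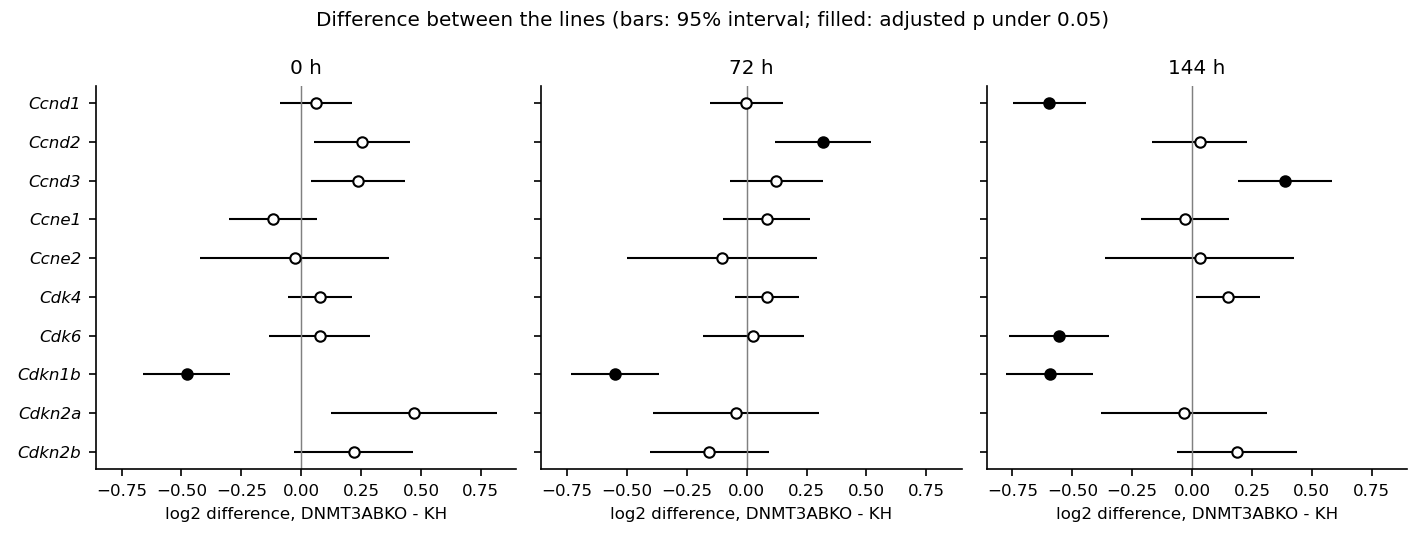
Difference between the lines, DNMT3ABKO minus KH, in log2(TPM + 1) at 0, 72 and 144 h, with 95% intervals from limma and filled points for an adjusted p under 0.05. Cdkn1b is filled in all 3 panels at -0.48 to -0.59, and Ccnd1 and Cdk6 lie at -0.60 and -0.56 at 144 h only.

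The responses of the lines were compared directly. At 72 h none of the 10 genes differed in response by limma, where 5.23% of all genes did (3.38% higher and 1.86% lower). The widest differences were in Cdkn2a (-0.52, interval -1.0 to -0.03, adjusted p = 0.249) and Cdkn2b (-0.37, interval -0.73 to -0.02, adjusted p = 0.244), whose unadjusted p-values from limma were under 0.05. Without the second untreated DNMT3ABKO replicate, Cdkn2a (-0.73, adjusted p = 0.0268) and Ccne1 (0.32, adjusted p = 0.0288) passed. At 144 h 2 genes passed, both lower in DNMT3ABKO cells, beside 8.59% of all genes (3.70% lower and 4.89% higher). For Ccnd1 the fall was larger by 0.66 on the log2 scale in DNMT3ABKO than in KH cells (difference -0.66 ± 0.10, interval -0.87 to -0.44, adjusted p = 0.00203). For Cdk6 the difference was -0.63 ± 0.13 (interval -0.93 to -0.34, adjusted p = 0.0162), and it did not pass with only the 4 groups in the model (adjusted p = 0.0569) or without the first replicate of KH at 0 h (0.0576), of KH at 144 h (0.0753) or of DNMT3ABKO cells at 144 h (0.0727). For Cdkn1b the difference in response was -0.12 at 144 h (interval -0.37 to 0.14, adjusted p = 0.605), beside its lower level in DNMT3ABKO cells throughout.

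Around the set, 45 further genes of the G1 pathway were read in 6 lists. In KH cells at 72 h, 28 of them passed (19 higher and 9 lower), and at 144 h 20 (13 and 7). In DNMT3ABKO cells the numbers were 27 (18 and 9) and 28 (16 and 12). The shares of 62.2% and 44.4% in KH and 60.0% and 62.2% in DNMT3ABKO cells stood beside the 47.8, 51.3, 56.0 and 57.6% of all genes given above.

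Among the other CDK inhibitors, Cdkn1a (p21), a p53 target, fell in both lines at both times. It held 90.5 and 98.6 TPM in KH cells at 0 h, 43.1 and 40.5 TPM at 72 h and 26.1 and 23.1 TPM at 144 h (-1.16 and -1.90). Cdkn1c (p57) rose, from 18.6 and 20.3 TPM to 29.8 and 30.5 TPM and to 32.5 and 33.4 TPM (0.61 and 0.73). Its rise by 72 h was larger in DNMT3ABKO cells, which held 51.8 and 52.6 TPM (difference 0.76). At 144 h DNMT3ABKO cells held 32.4 and 30.5 TPM of Cdkn1c, lower than at 72 h by the test. The Cip/Kip genes Cdkn1b and Cdkn1c thus rose while Cdkn1a and, in the set, Cdkn2a and Cdkn2b fell. Cdkn2d (p19Ink4d) passed in 1 of the 4 responses, KH at 72 h (0.40), and Cdkn2c (p18) in none. Whether fibroblasts or p53 had a part in the fall of Cdkn1a was not tested.

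Of the pocket protein genes Rbl1 (p107) rose in all 4 responses, from 6.70 and 7.55 TPM to 12.1 and 12.4 TPM in KH at 72 h, and Rb1 passed in none. Among 10 E2F and DP genes, E2f6, E2f8 and the E2F partner gene Tfdp2 rose in all 4 responses, and Tfdp1, the other partner, fell in all 4. E2f7 was lower in KH at 72 h and in DNMT3ABKO cells at 144 h, and passed in neither other response. E2f4 passed only in DNMT3ABKO cells at 72 h, where it was higher. E2f1 passed only in KH at 72 h (0.39), and E2f2, E2f3 and E2f5 in none. Of the 8 genes around CDK2, Cdc25a, the phosphatase that activates CDK2, was the only one to pass in all 4 responses (-0.27 and -0.38 in KH, -0.26 and -0.67 in DNMT3ABKO cells). Of 11 ubiquitin ligase genes, Skp2, whose product targets p27 for degradation, fell in all 4. In KH cells Skp2 went from 34.8 and 38.3 TPM to 28.9 and 30.1 TPM and to 25.5 and 24.4 TPM. Skp1a and the cyclin D ligase gene Fbxo4 also fell in all 4. Fbxo4 was low, at 3.98 and 3.27 TPM in KH cells at 0 h and 1.48 and 1.26 TPM at 144 h. Rnf123, which encodes a subunit of another p27 ligase, and Dcaf1 rose in all 4, and Ambra1, Cul1 and Rbx1 passed in none.

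Of the 9 upstream genes, Foxo3, which encodes an activator of Cdkn1b, rose in all 4 responses, from 18.0 and 20.1 TPM to 38.0 and 36.1 TPM and to 47.0 and 45.5 TPM in KH cells. Akt1, the kinase that restrains FOXO factors, fell in all 4 (-0.89 and -1.04 in KH). Bmi1 and Cbx7, Polycomb genes known to repress the INK4 locus, rose in all 4. Foxo1 was higher at 72 h in both lines and passed at 144 h in neither. Dmtf1 was higher and Gsk3b lower in both DNMT3ABKO responses, and neither passed in KH cells. The part of these upstream genes in the changes of the set was not tested. Myc rose in all 4, in KH from 49.9 and 51.0 TPM to 122 and 117 TPM and to 81.8 and 78.3 TPM. DNMT3ABKO libraries went from 38.2 and 35.4 TPM to 125 and 126 TPM and to 82.1 and 82.7 TPM. The rise of Myc was larger in DNMT3ABKO cells at 72 h (difference 0.51, adjusted p = 0.00907) and at 144 h (0.49, adjusted p = 0.00698). Its level was lower in DNMT3ABKO cells at 0 h by the test, and at 72 and 144 h the lines did not differ by it. Mycn passed in neither KH response and fell in both DNMT3ABKO responses, to 92.7 and 91.5 TPM at 144 h against 156 and 155 TPM in KH. Between the lines at 144 h, 13 of the 45 genes passed (28.9%, beside 26.5% of all genes), 2 higher (Bmi1 and Cdkn1a) and 11 lower in DNMT3ABKO cells, among them Tfdp1, Skp2, E2f3, E2f7 and Cdk2.

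Genes with a pattern most like those of the set were read by the Pearson correlation of log2(TPM + 1) over the 12 libraries, which share lines and time points, so the values are descriptions. Ccnd1 was nearest to the Wnt co-receptor gene Lrp5 (r = 0.993), Mmp2 (0.991) and Fgfr1 (0.990). Ccnd2 was nearest to Glipr2, Clic4 and Hmgn1 (0.987 to 0.991), and Ccnd3 to Glrx, Elf4 and Slc23a4 (0.979 for each). Cdkn2b was nearest to Loxl1 (0.998), Msn and Wisp2 (0.995 for each), and Cdkn2a to the collagen gene Col5a3 (0.983), Glrx5 and Lamtor4. Mmp2 and Loxl1 are among the 20 fibroblast markers. Cdk4 was nearest to Adprh, Alkbh6 and Atf6b (0.980 to 0.981), and Cdk6 to Dis3l (0.982), Zbtb8a and Plpp3. Ccne1 was nearest to Pus7 (0.988), Hpdl and Prelid3b, and Ccne2 to Tfb1m (0.964), Tm9sf3 and Grsf1. Within the set the closest pair was Ccnd2 and Ccnd3 (0.934).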

How the data were processed

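Per the labels and the study's methods, RNA with ERCC spike-ins was depleted of ribosomal RNA. The submitters' processing notes name cutadapt 2.4, STAR 2.7.3a, StringTie 2.0 and mm10, while the methods name later releases of STAR and StringTie and add a GENCODE annotation. The deposited values are TPM per gene in 1 file per library, and each library sums to 1000000. No spike-in row was present, so values are shares of each library's RNA, and total RNA per cell was not analysed here. Depth is unknown, so no counting interval is given. Rows that repeated an identifier (9 to 16 per file) were summed.

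Genes averaging 1 TPM or more over the 12 libraries (15727) were analysed as log2(TPM + 1) with limma 3.58.1 (lmFit, contrasts.fit, eBayes with trend; R 4.3.3), with 1 coefficient for each of the 6 groups, in 11 contrasts, and a gene passed at an adjusted p (Benjamini-Hochberg, over all genes) under 0.05. The study's count test was not used, because TPM are not counts. An exact permutation test of 2 libraries against 2 cannot pass this threshold. The script was tested on simulated data. Deviations of same-numbered replicates from their group means correlated between time points with r of -0.10 to 0.10, so the numbers were not taken to pair the samples, although the study's methods state that the time points of a replicate were processed in parallel.

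The 10 genes, the pathway lists and the marker lists were chosen with earlier results of these data known. The text names these genes, genes of the G1 lists that passed or stand beside a gene of the set, Dnmt3a, Dnmt3b and, for each of the 10, the 3 most correlated genes, with predicted and unnamed genes left out. The genes most correlated with Cdkn1b are not reported here. Genes that overlap the set, and single markers, were named after their values were seen. The alternatives changed the pseudocount to 0.1 TPM, dropped the filter (37364 genes), rescaled libraries by median ratios, fitted only the compared groups, added the replicate number within each line as a block, or left out each library in turn. Python 3.11.15, pandas 2.3.3, NumPy 2.4.6 and matplotlib 3.10.9 were used.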

Additional observations from a re-analysis of the deposited data

Results flagged for a closer look

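The responses of Ccnd1 and Cdk6 at 144 h differed between the lines by limma's test of the difference itself. For Ccnd1 the response in DNMT3ABKO cells minus that in KH cells was -0.66 on the log2 scale (adjusted p = 0.00203), with both DNMT3ABKO libraries at 144 h below both KH libraries, and it passed under all 13 alternatives (adjusted p from 7.06e-05 to 0.0190). For Cdk6 it was -0.63 (adjusted p = 0.0162), again with both DNMT3ABKO libraries below both KH libraries, and it did not pass under 4 of the alternatives. The summed fibroblast markers at 144 h were 156 and 159 TPM in KH and 160 and 169 TPM in DNMT3ABKO cells. Of the 19 tested, 4 differed between the lines at 144 h, with Acta2, Col5a1 and Col5a2 higher and Mmp2 lower in DNMT3ABKO cells. Mmp2, among the genes nearest to Ccnd1 (r = 0.991), was at 5.33 against 8.38 TPM, and its 144 h response differed by -0.63 (adjusted p = 0.0301). The part of fibroblasts in these differences was not tested. Each genotype was 1 line, so that genotype and line cannot be told apart.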

How the results depend on the processing

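The alternatives gave 1070 values for the 10 genes. Direction and side of the threshold held except for 27 calls lost, 24 gained and 48 values of opposite sign, none of which passed in either setting; apart from values and limits stated here, causes were not tested. Of the genes counted as passing in the KH late step (2), 1 was left without the filter, with the replicate block and without any 1 library, and 4 passed with median-ratio scaling (Ccnd2 and Ccne2 gained) and 6 with only the compared groups. In the DNMT3ABKO late step 6 passed with only those groups, in place of 3. Between the untreated lines 3 passed with median-ratio scaling, 0 with only those groups (limma, where 303 of all genes passed), and 1 to 3 without 1 library. At 72 h 1 passed without the filter, with the block and without any 1 library, in place of 2. For the difference in response 0 to 2 passed at 72 h and 1 to 3 at 144 h without 1 library, and 1 at 144 h with only those groups. The block changed no other call of the 10 genes. A fit that leaves out a library assumes that the lone library of its group varies like the others. TPM keeps no depth, so counting error behind the low values of Cdkn2b and Cdkn2a is unknown, and each group rests on 2 libraries.

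Median-ratio scaling reversed the sign of log2 values near 0: Cdk6 -0.029 in DNMT3ABKO at 72 h against 0 h, Ccnd2 0.014 and Cdk4 0.029 in the DNMT3ABKO late step, Ccne2 0.0299 between lines at 0 h, Ccnd1 0.035 between lines at 72 h, Ccne1 0.022 and Cdkn2a 0.014 between lines at 144 h, Cdk4 -0.0199 in the difference of 72 h responses. With a pseudocount of 0.1 TPM Cdkn2b reversed in the difference of 144 h responses (0.02). Leaving out 1 library gave ranges that cross 0. Between lines at 0 h these were Ccnd1 -0.0063 to 0.13, Ccne1 -0.24 to 0.0046, Ccne2 -0.32 to 0.27, Cdk6 -0.033 to 0.19. Between lines at 72 h these were Ccnd1 -0.012 to 0.01, Cdk6 -0.042 to 0.099, Cdkn2a -0.17 to 0.078. In the difference of 72 h responses these were Ccnd1 -0.13 to 0.0053, Ccnd2 -0.0599 to 0.19, Ccne2 -0.37 to 0.22, Cdk4 -0.044 to 0.057, Cdk6 -0.16 to 0.061, Cdkn1b -0.16 to 0.023. In the DNMT3ABKO late step these were Ccnd3 -0.024 to 0.11. In the difference of 144 h responses these were Ccne1 -0.034 to 0.21, Ccne2 -0.24 to 0.35, Cdkn2b -0.17 to 0.11. In DNMT3ABKO at 144 h against 0 h these were Ccne2 -0.54 to 0.052. In DNMT3ABKO at 72 h against 0 h these were Ccne2 -0.14 to 0.45, Cdk6 -0.019 to 0.20. Between lines at 144 h these were Ccne2 -0.12 to 0.18, Cdkn2a -0.18 to 0.12. 

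Median-ratio scaling moved the median of all genes at 72 h against 0 h in DNMT3ABKO cells from 0.12 to 0.01, and Cdk4 there to 0.21, still passing. It moved the share of higher genes among those passing from 59.1 to 47.6% in KH and 61.3 to 49.9% in DNMT3ABKO cells at 72 h, and from 31.7 to 46.1% and 32.3 to 47.8% in the late steps. Over all genes, the count between lines at 72 h went from 3029 to 5155 with only the compared groups, and that for the difference in response from 823 to 437 (72 h) or 1351 to 757 (144 h); with the block the former was 545, with scaling they were 1344 and 2169, and 2099 at 144 h without the filter. The KH late step went from 3597 to 5442 with only the compared groups. Without 1 library the counts were 1762 to 2061 and 2600 to 2795 in the KH and DNMT3ABKO late steps (3597 and 4289 with all 12), 720 to 5039, 1439 to 1538 and 2362 to 2486 between lines at 0, 72 and 144 h (1425, 3029 and 4166), and 365 to 2799 and 785 to 3599 for the differences in response; the highest of these at 0 h and in both responses came without the second untreated DNMT3ABKO replicate.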
